A study of Mus musculus with 62 samples.

Results

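The clustered protocadherins are adhesion proteins of the neuronal surface, encoded side by side on mouse chromosome 18 in an alpha, a beta and a gamma cluster. Members were taken as the protein-coding genes whose symbol starts with Pcdha, Pcdhb or Pcdhg, which gave 59 of the 56415 genes counted. The alpha cluster held 15 members, namely 12 alpha genes, the C-type genes Pcdhac1 and Pcdhac2, and Pcdha4b, a chimeric gene model that joins an alpha variable exon to the gamma constant exons. The beta cluster held 22 genes and the gamma cluster 22 genes, of which 12 were of the A type, 7 of the B type and 3 of the C type (Pcdhgc3, Pcdhgc4, Pcdhgc5). All lie on the plus strand. In GRCm39 coordinates the alpha genes span chr18:37063237-37320714 and the gamma genes chr18:37794846-37974926. The beta genes start between chr18:37397991 and chr18:37650924.

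Each alpha or gamma mRNA begins with a large variable exon that encodes the extracellular and membrane-spanning parts and has its own promoter, and it is spliced to constant exons that every gene of that cluster shares. Beta genes consist of a single coding exon and share none with each other. A neuron expresses its own combination of variable exons, chosen with the help of the insulator protein CTCF and cohesin, and like combinations on touching membranes bind each other, by which a neuron tells its own branches from those of its neighbours. The C-type isoforms are expressed more evenly among neurons than the others.

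RNA sequencing covered 62 libraries from 16 male C57BL/6J mice aged 8 to 10 weeks, in 5 brain regions: cortex (CTX), dorsal and ventral hippocampus (dHPC, vHPC), and dorsal and ventral striatum (DS, VS). In the acute paradigm mice received 1 intraperitoneal injection of saline or of ethanol at 2 g/kg, and in the chronic paradigm 10 daily injections of either, with tissue taken 4 h after the last. Every mouse, controls included, was therefore injected. Of the 20 groups, 18 held 3 libraries and 2 held 4, and several regions came from the same mouse.

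CTX and dHPC libraries were made with a kit that does not mark strand and held 43173748 to 71164766 gene counts, while vHPC, DS and VS libraries were made with a stranded kit on another sequencer and held 8149628 to 46564992. A level in CTX or dHPC against a level in the other regions cannot be told apart from this batch, so values are set side by side across batches and tested only within them. In DS, chronic saline replicate 2 lacked chromosomes 7, 8, 9, X, Y and MT and nearly all of 6, although chromosome 18 was complete, and the tests that use it were run on the chromosomes complete in every library. A dHPC chronic saline library, replicate 5, had a summed level of 10 striatal projection neuron markers of 2827 CPM (counts scaled to a common library size), against 214 to 958 in the other dHPC saline libraries. Region markers followed the labels in saline mice, with 9 pallial excitatory neuron markers at 1909 to 2165 CPM in CTX and 440 to 652 CPM in the complete DS libraries. In tissue RNA, fewer cells of a type and less RNA per cell cannot be told apart.

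The deposited count of an alpha or gamma gene consisted mostly of reads on the shared constant exons. Every gene of a cluster was credited with a read on an exon that it shares, so the reads on the alpha constant exons (59, 89 and 2712 bases, ending at chr18:37320710) entered each alpha count, and those on the gamma constant exons (59, 89 and 1971 bases, ending at chr18:37974926) entered each gamma count. The shared number was bounded from below by subtracting transcripts that lack the constant exons from those of the same gene that hold them, and from above by the smallest count in the cluster, which belonged to Pcdha8 and Pcdhgb8 in 62 of 62 libraries. The bounds lay 0.12 to 1.94% apart in the alpha cluster and 0.0835 to 0.83% apart in the gamma cluster.

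Across genes and libraries, the median share of the count that was shared was 95.5% for alpha genes and 96.9% for gamma genes. The C-type genes Pcdhac2, Pcdhgc5 and Pcdhgc3 had the largest share of reads of their own. The C-type genes Pcdhac1 (96% shared) and Pcdhgc4 (97%) lay near the medians of their clusters. The shared part made up 70.9% of the Pcdhac2 count (63 to 87.7% over libraries), 79.4% of Pcdhgc5 (71.8 to 88.9%) and 84.8% of Pcdhgc3 (79 to 89.9%). At the other end it made up 99.2% of Pcdha8 and 99.5% of Pcdhgb8. For 4 genes with an annotated transcript of the variable exon alone, the count left after subtraction was 0.981 to 1.01 times that transcript's count. Transcripts of this kind also set the lower bound, so a ratio near 1 was largely fixed in advance and is no independent check.

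**Figure D1:**
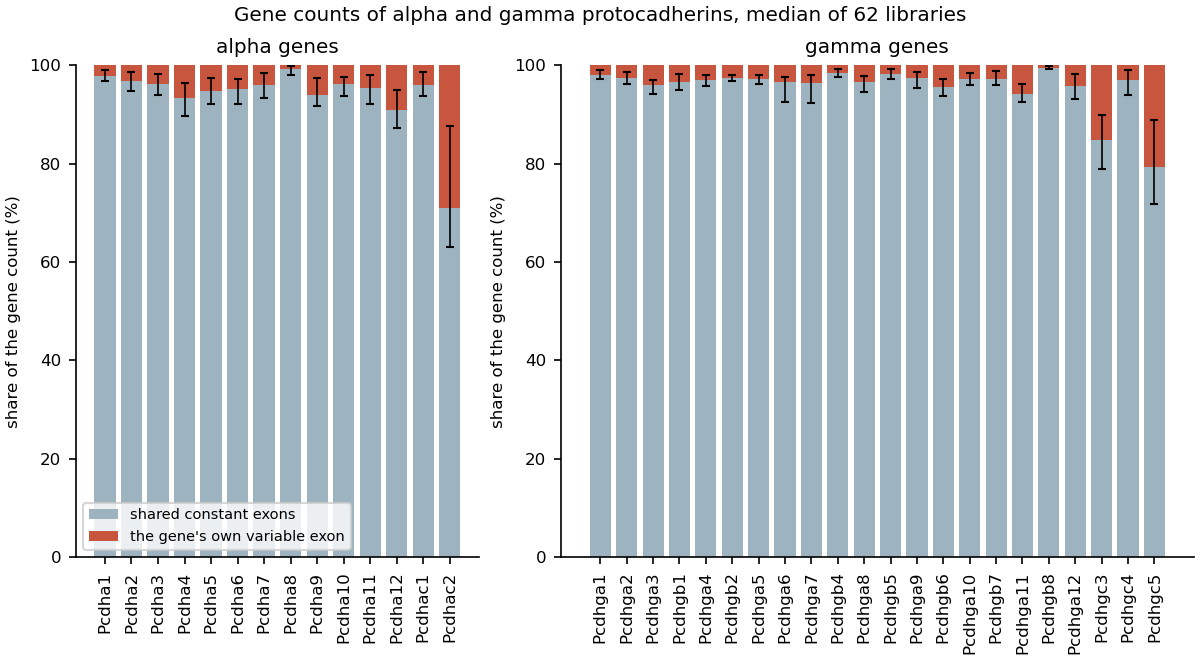
Stacked bars give, for each alpha gene (left) and gamma gene (right), the median percentage of the gene count that came from the shared constant exons (grey) and from the gene's own variable exon (red), with bars from the lowest to the highest of 62 libraries. Pcdhac2 (70.9%), Pcdhgc5 (79.4%) and Pcdhgc3 (84.8%) stand below the other genes.

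A gene count of these clusters therefore moves with the whole cluster. Below, the shared part is used as the level of a cluster, and the count left after taking off the lower bound of the shared part is used as the level of a variable exon. Levels are in CPM of the library size normalised by trimmed mean of M values, and in CPM per kilobase (CPM per kb) where genes or clusters are set against each other. A fragment often added 2 counts to a gene, since read ends were counted, and beta and variable exons resemble each other closely enough that reads mapping to several copies were counted for each, so differences between near-identical copies are uncertain.

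In saline mice the gamma cluster was the most abundant, at 155 to 176 CPM per kb of its constant exons over the 5 regions. The alpha cluster stood at 26.9 to 39.6 CPM per kb and the 22 beta genes together at 31.3 to 34.8 CPM per kb. The order of gamma against the others held in every region, while the alpha mean stood above beta in CTX and below it in dHPC, DS and VS. In vHPC the means were close, at 32.2 ± 1.41 CPM per kb for alpha and 31.3 ± 2.95 for beta (SD, n = 6). There alpha lay above beta in the acute saline libraries and below it in the chronic saline ones.

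The shared alpha exons ran from 108 to 123 CPM in the 6 saline CTX libraries (median 111) and from 73.4 to 87.8 CPM in dHPC (median 76.1), so the groups did not overlap, and CTX was higher in 4 of 4 mice that gave both. The vHPC libraries ran from 86.7 to 97.8 CPM (median 91.5), DS from 76.3 to 98.1 CPM (median 77.9; 76.3 to 81.5 without the incomplete library) and VS from 63.8 to 88.6 CPM (median 78.8). The vHPC libraries lay above DS in 5 of 6 mice and above VS in 5 of 5, although the highest DS library, the incomplete one, and the highest VS library overlapped the vHPC range. DS and VS did not separate.

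The shared gamma exons varied less between regions. Their mean was 358 ± 10.8 CPM in CTX and 328 ± 24.6 CPM in dHPC (SD, n = 6 each), and the ranges of 341 to 368 and 307 to 367 CPM overlapped. In batch 2 the means were 358 ± 26.5 CPM in vHPC, 372 ± 22.5 in DS and 363 ± 27.1 in VS (SD, n = 6 each), and neighbours in this order differed by less than their SD. The beta sum was 142 ± 6.7 CPM in CTX and 136 ± 3.96 CPM in dHPC, and in batch 2 it was 144 ± 16 CPM in DS, 144 ± 6.42 in VS and 130 ± 11.4 in vHPC (SD, n = 6 each). Within mice, the beta sum was lower in vHPC than in VS in 5 of 5, with overlapping libraries.

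**Figure D2:**
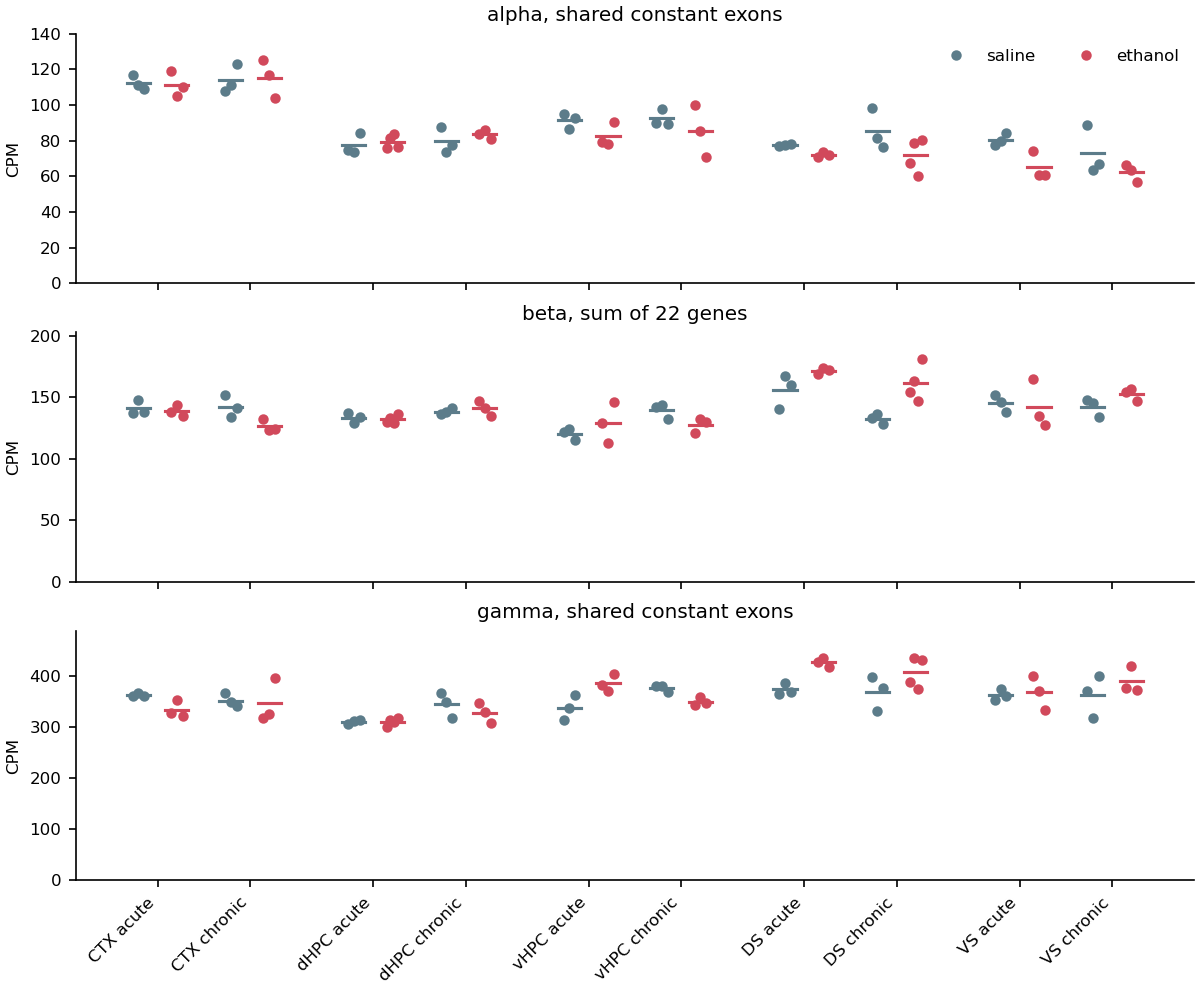
Each point is a library and each line a group mean, in CPM on axes that start at 0, for the shared alpha exons (top), the sum of 22 beta genes (middle) and the shared gamma exons (bottom), by region and paradigm, saline in grey-blue and ethanol in red. Alpha is highest in CTX, where all saline libraries lie at 108 CPM or above, and gamma exceeds 300 CPM in nearly every library.

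Among alpha genes, Pcdhac2 (ENSMUSG00000102697, chr18:37276556-37320710), needed for the spacing of serotonergic axons, had the most abundant variable exon in every region. In saline mice it ran from 14.8 to 17.3 CPM per kb in CTX (median 16.2), from 9.94 to 12.2 in dHPC (median 11.1) and from 11.7 to 17.4 in vHPC (median 13.7). It ran from 4.53 to 9.2 CPM per kb in DS (median 8.14; 7.63 to 9.2 without the incomplete library) and from 8.35 to 10.2 in VS (median 9.77). This exon alone gave 32.1 to 40% of the summed alpha variable-exon level, depending on the region. Pcdha12 came next, at means of 2.77 CPM per kb in DS to 5.77 in CTX. Pcdhac1 (ENSMUSG00000103255), the other alpha C-type gene, stood at only 0.935 CPM per kb in VS to 2.16 in CTX, so the C-type genes were not alike in level. Pcdha8 was lowest in each region, at 0.16 to 0.494 CPM per kb, a value that rests on the lower bound alone because this gene sets the upper bound.

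Among gamma genes, Pcdhgc5 (ENSMUSG00000102543, start chr18:37952566), a late-expressed C-type isoform, ranked first and Pcdhgc3 (ENSMUSG00000102918), which binds the Wnt pathway protein Axin1, second in all 5 regions. Pcdhgc5 ran from 43.2 to 52.1 CPM per kb in CTX (median 47.5), from 30.9 to 34.6 in dHPC (median 33) and from 27.9 to 43.4 in vHPC (median 36). It ran from 19 to 34.4 CPM per kb in DS (median 25.7) and from 22.4 to 34.3 in VS (median 33.4). Its share of the summed gamma variable-exon level was 32% in CTX and 18.8% in DS. Pcdhgc3 was more even, with means of 22.1 CPM per kb in DS to 26.7 in dHPC. The third C-type gene, Pcdhgc4 (ENSMUSG00000023036), which is required for the survival of cortical interneurons, stood far below these at 2.58 to 4.35 CPM per kb, among the A and B types. The lowest gamma gene was Pcdhgb8, at 0.527 to 0.973 CPM per kb.

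Beta genes formed a flatter series. The highest was Pcdhb17 in CTX (3.86 ± 0.414 CPM per kb; SD, n = 6), Pcdhb9 in dHPC (4.11 ± 0.359), vHPC (3.68 ± 0.801) and VS (4.04 ± 0.437), and Pcdhb20 in DS (3.56 ± 0.302). Pcdhb1 (ENSMUSG00000051663, chr18:37397991-37400578), the gene nearest the alpha cluster, was lowest everywhere, with a mean of 1 to 9.5 counts per library depending on the region.

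**Figure D3:**
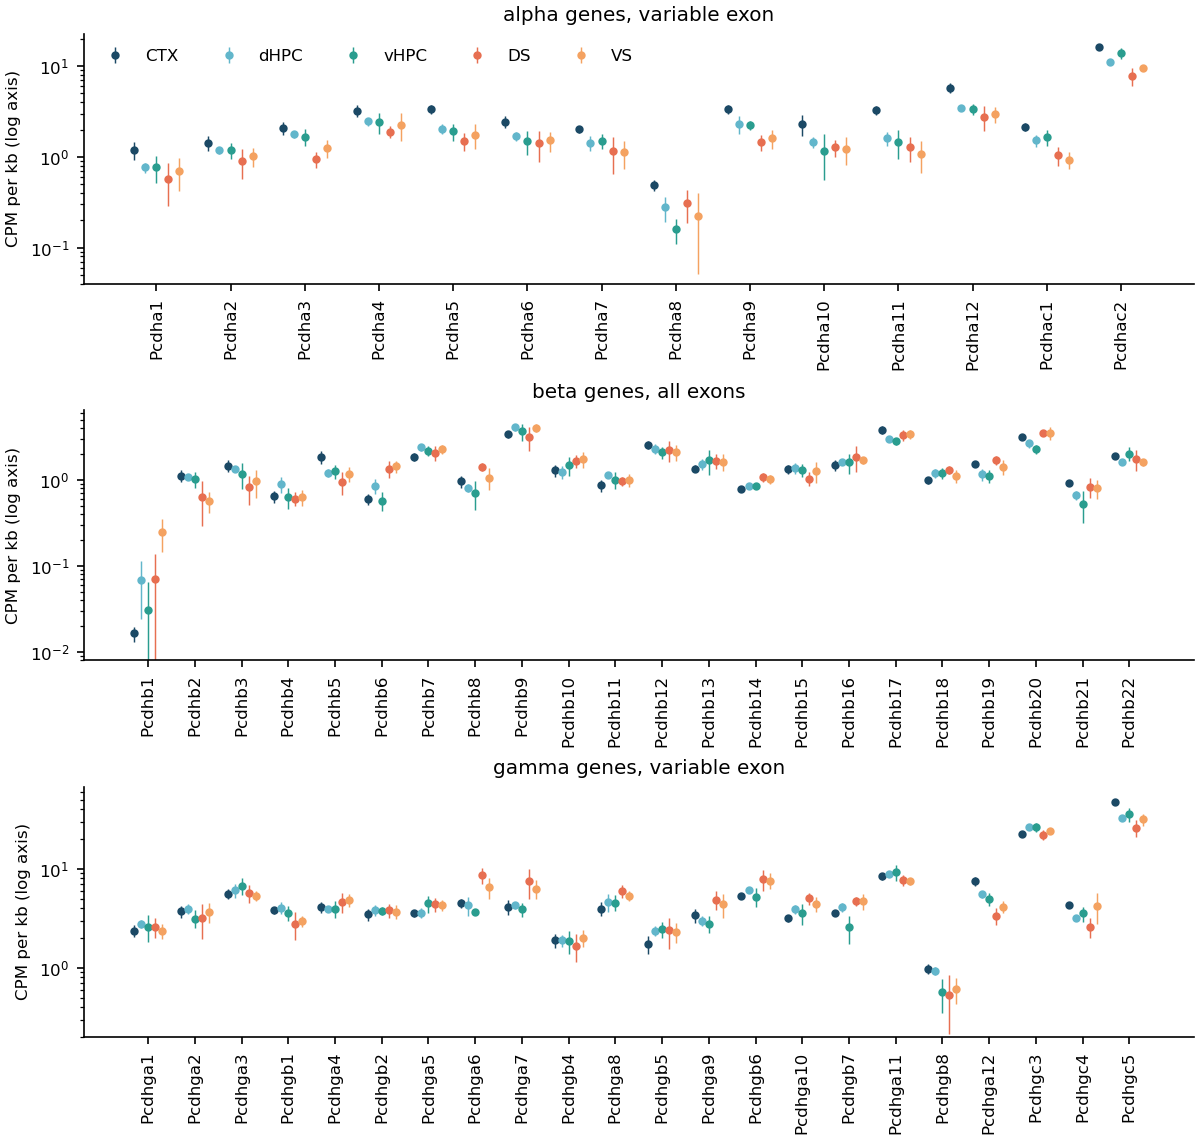
Points give the mean level of each variable exon (alpha, gamma) or gene (beta) in saline mice, in CPM per kb on log axes, for 5 regions, with bars of 1 SD over 6 libraries (bars that reach below the axis are clipped). Pcdhac2, Pcdhgc3 and Pcdhgc5 lie above the other members of their clusters in all regions, and Pcdha8, Pcdhb1 and Pcdhgb8 below them.

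The ratio of variable-exon to constant-exon density differed between regions. In alpha transcripts the summed variable exons reached 122 ± 9.38% of the constant-exon density in CTX, 122 ± 8.91% in dHPC and 115 ± 14.3% in vHPC, but 105 ± 6.9% in VS and 85.9 ± 13.7% in DS (SD over 12 or 13 libraries). In gamma transcripts it was 92.7% in dHPC, 89.3% in CTX, 85% in VS, 83.7% in vHPC and 81.7% in DS, with the lowest library, DS chronic saline replicate 2, at 55.7%. Without that library the DS means were 88.2 ± 11.4% in alpha and 83.8 ± 3.4% in gamma transcripts (SD, n = 12). The constant exons lie at the 3′ end, and the part of read coverage along the transcript in these region differences was not tested.

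The comparison of CTX with dHPC in saline mice addressed how the members differ between cortical and hippocampal tissue. On deposited gene counts, edgeR's quasi-likelihood test called 43 members higher in CTX and 7 lower at FDR under 0.1, of 59 tested. All genes were called at 55.3% (26.4% higher and 28.9% lower), and 15 of 15 alpha and 21 of 22 gamma members were among the higher, each cluster moving nearly as 1 value because of its shared exons (median log2 fold change 0.53 for alpha and 0.13 for gamma, against -0.01 for all genes). With the mouse as a block, 35 were called higher and 6 lower, and 14 gamma members were among the higher. Without dHPC chronic saline replicate 5, 43 were higher and 7 lower.

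With the shared part taken off, the alpha variable exons stayed on 1 side and the gamma ones split. In the alpha cluster 15 of 15 members were higher in CTX (median log2 fold change 0.54). They include the chimeric Pcdha4b, from which no shared part was taken off. In the gamma cluster 3 were higher and 6 lower. Of all genes, 55.2% were called (26.4% higher and 28.9% lower). Pcdhac2 lay above its dHPC range in every CTX library and was 0.54 ± 0.05 higher in log2 (SE, FDR = 8.74e-07, edgeR). The largest alpha difference was that of Pcdha11 (1.03 ± 0.11, FDR = 3.09e-06), followed by Pcdha8 (0.84) and Pcdha12 (0.75 ± 0.08, FDR = 2.35e-06). Pcdhac1 differed by 0.51 ± 0.10 (FDR = 0.000684). Pcdha3 had the smallest alpha difference other than Pcdha4b (0.23, FDR = 0.0909), and it was called in only 3 of 12 fits that left out a library.

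The C-type gamma genes went in opposite directions. Pcdhgc5 was 0.54 ± 0.05 higher in CTX in log2 (SE, FDR = 7.75e-07, edgeR), with no overlap between 43.2 to 52.1 CPM per kb in CTX and 30.9 to 34.6 in dHPC. Pcdhgc4 was 0.43 ± 0.06 higher (FDR = 4.89e-05), between 4.02 and 4.6 CPM per kb in CTX and between 2.93 and 3.53 in dHPC. Pcdhgc3 was 0.25 lower (log2 fold change -0.25 ± 0.04, FDR = 0.000167), between 21 and 23.9 CPM per kb in CTX and between 25.6 and 28.1 in dHPC. Each of these held in 4 of 4 mice with both regions and without overlap of the libraries. Pcdhga12, the A-type gene next to the C-type genes, was 0.45 ± 0.07 higher (FDR = 0.000162), while Pcdhgb5, Pcdhga10, Pcdhga1, Pcdhgb6 and Pcdhgb7 were lower, by log2 fold changes of -0.41 to -0.21.

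With the mouse as a block, the calls of Pcdha3, Pcdhga1, Pcdhgb6 and Pcdhgb7 were lost and Pcdhga8 was called lower (log2 fold change -0.33). This left 14 alpha members higher, Pcdha4b among them, and 3 gamma variable exons higher against 4 lower, beside 45.6% of all genes called. Without dHPC chronic saline replicate 5, 18 variable exons were higher and 5 lower, with Pcdha4b not counted. Pan-neuronal markers summed to 6268 to 6878 CPM in saline CTX and 3882 to 4413 in dHPC (6 of 6 higher in CTX), and oligodendrocyte markers to 1194 to 2614 CPM in CTX and 6590 to 9842 in dHPC (8 of 8 lower). Their part in the difference was not tested.

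Beta genes were divided between the regions, 7 higher and 7 lower in CTX, with a median log2 fold change of -0.01. All genes were divided too, with 26.4% called higher and 28.9% lower. Pcdhb5 was 0.60 ± 0.11 higher (SE, FDR = 0.000465, edgeR), at 1.58 to 2.47 CPM per kb in CTX and 1.02 to 1.34 in dHPC. Pcdhb17 was 0.36 ± 0.08 higher, at 3.26 to 4.41 and 2.67 to 3.18 CPM per kb, and neither gene's libraries overlapped. Pcdhb21 (0.47), Pcdhb19, Pcdhb20 (0.27), Pcdhb8 (0.25) and Pcdhb22 (0.24) were the others called higher. The lower ones were Pcdhb6 (-0.49), Pcdhb4 (-0.45), Pcdhb7 (-0.38), Pcdhb11 (-0.38), Pcdhb18 (-0.27), Pcdhb9 (-0.26) and Pcdhb1, whose log2 fold change of -1.91 rested on means of 2.17 counts in CTX and 9.5 in dHPC. With the mouse as a block the calls of Pcdhb8 (0.30, FDR = 0.164, edgeR) and Pcdhb11 (-0.30, FDR = 0.102) were lost, and Pcdhb8 was called in 4 of 12 fits that left out a library.

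Against DS, vHPC had higher alpha and divided gamma variable exons. On gene counts 15 members were higher and 5 lower in vHPC, of 58 tested, beside 43.1% of all genes called (21.3% higher and 21.8% lower), and 14 of the 15 were alpha members with a median log2 fold change of 0.19. No gamma count was called by edgeR, 0 of 22 had an unadjusted p under 0.05 (44.5% of all genes did), and DESeq2 called 0. With the ethanol mice added and the condition as a covariate, 17 members were higher and 31 lower, among them 20 of 22 gamma counts lower, beside 58.7% of all genes. The alpha calls on gene counts depended on the filter and on a library: 4 members were called higher and 5 lower without the low-count filter, and 7 higher and 6 lower without DS chronic saline replicate 6.

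In saline mice gamma variable exons were called, while gamma counts were not. With the shared part taken off, 4 gamma variable exons were higher in vHPC than in DS and 7 were lower, and 4 alpha ones were higher and 1 lower, beside 43.1% of all genes. Pcdhga6 (ENSMUSG00000103793) ran from 3.39 to 3.99 CPM per kb in vHPC (median 3.59) and from 6.62 to 10.5 in DS (median 9.15). It was lower in vHPC in 6 of 6 mice, without overlap, with a log2 fold change of -1.25 ± 0.13 (SE, FDR = 2.19e-06, edgeR), while its gene count differed by -0.10 (FDR = 0.267).

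The other exons lower in vHPC were neighbours of Pcdhga6. Pcdhga7 (ENSMUSG00000103472) ran from 3.02 to 4.75 CPM per kb in vHPC and from 5.59 to 12.2 in DS (log2 fold change -0.94 ± 0.18, FDR = 0.000766). Pcdhgb7 (ENSMUSG00000104063) ran from 1.62 to 3.81 CPM per kb in vHPC and from 4.1 to 5.2 in DS (-0.88 ± 0.19, FDR = 0.00171). Both were lower in 6 of 6 mice without overlap. Pcdhga9 (-0.80 ± 0.17, FDR = 0.00159), Pcdhgb6 (-0.58), Pcdhga10 (-0.50) and Pcdhga8 (-0.39) were also lower. In genomic order the 9 genes from Pcdhga6 (start chr18:37840092) to Pcdhgb7 (start chr18:37884653) held all 7 of these exons, with Pcdhgb4 and Pcdhgb5 between them not called. This stretch was noticed after the values were seen and was not tested as a unit.

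The C-type exons went the other way. Pcdhac2 was 0.85 ± 0.15 higher in vHPC than in DS in log2 (SE, FDR = 0.000371, edgeR), with no overlap and in 6 of 6 mice. Pcdhac1 (0.65 ± 0.20, FDR = 0.0212), Pcdhgc5 (0.45 ± 0.13, FDR = 0.0167), Pcdhgc4 (0.45 ± 0.16, FDR = 0.0403) and Pcdhgc3 (0.25 ± 0.09, FDR = 0.0494) were higher as well, but Pcdhgc5 in 4 of 6 mice and Pcdhgc3 and Pcdhgc4 in 5 of 6. Pcdhga12 ran from 4.11 to 6.29 CPM per kb in vHPC and from 2.3 to 4.11 in DS (0.59 ± 0.14, FDR = 0.00375). Pcdha3 (0.83 ± 0.22, FDR = 0.0073) and Pcdha9 (0.63 ± 0.18, FDR = 0.0125) were higher, and Pcdha8, on few reads, was lower (-0.91 ± 0.39, FDR = 0.0863).

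Without the incomplete DS library, 8 variable exons were higher and 7 lower, with log2 fold changes of 0.72 for Pcdhac2 (FDR = 0.000101, edgeR), 0.35 for Pcdhgc5 (FDR = 0.0367) and -1.32 for Pcdhga6 (FDR = 1.56e-06). With the mouse as a block only the Pcdha8 call was lost among variable exons, beside 40.4% of all genes. Striatal projection neuron markers summed to 180 to 451 CPM in saline vHPC and to 4712 to 7427 CPM in the complete saline DS libraries, and pan-neuronal markers to 5018 to 5989 and 3404 to 4000 CPM. The part of either in the members' differences was not tested.

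**Figure D4:**
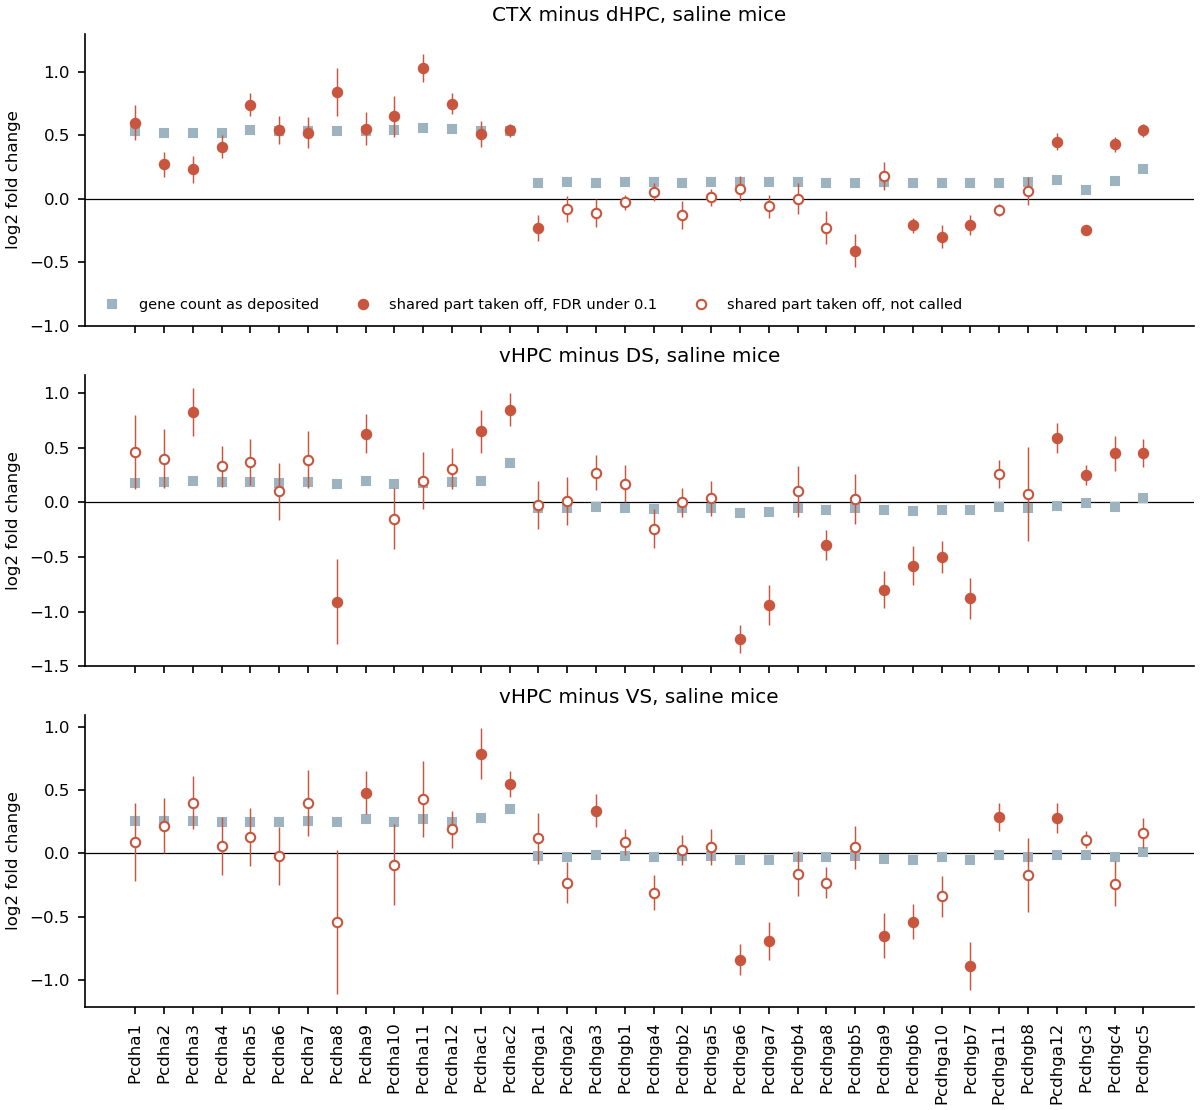
Log2 fold changes between regions in saline mice (CTX minus dHPC, vHPC minus DS, vHPC minus VS) for alpha and gamma genes in genomic order, on deposited gene counts (grey squares) and with the shared part taken off (red circles, filled where FDR was under 0.1, bars of 1 SE). Gene counts of a cluster lie on nearly a level line, while the variable exons of Pcdhga6 to Pcdhgb7 fall to as low as -1.25 against DS and that of Pcdhac2 lies at 0.54 or above in all 3 panels.

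Beta genes gave the largest log2 differences between vHPC and DS among the members' gene counts. Pcdhb6 (ENSMUSG00000051678, start chr18:37466974) ran from 0.402 to 0.825 CPM per kb in vHPC (median 0.557) and from 0.907 to 1.74 in DS (median 1.33), a log2 fold change of -1.22 ± 0.19 (SE, FDR = 0.000141, edgeR). Pcdhb8 ran from 0.464 to 1.16 CPM per kb in vHPC and from 1.23 to 1.62 in DS (-1.06 ± 0.22, FDR = 0.0015). Pcdhb20 (ENSMUSG00000046191, chr18:37637317-37640875) ran from 2.01 to 2.73 and from 3.2 to 3.96 CPM per kb (-0.63 ± 0.12, FDR = 0.000658). The libraries of these genes did not overlap, and each gene was lower in vHPC in 6 of 6 mice. Pcdhb19 (-0.60) and Pcdhb14 (-0.36) were also lower, and Pcdhb2 was higher (0.69, FDR = 0.0863), a call kept in 3 of 12 fits without a library (highest FDR 0.175). With the mouse as a block Pcdhb21 was called lower too (-0.69, FDR = 0.0676, edgeR), in 6 of 6 mice with overlapping libraries.

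VS gave a similar list against vHPC, from libraries of the same vHPC samples. On gene counts 16 members were higher in vHPC and 5 lower, of 59 tested, beside 39.1% of all genes (18.9% higher and 20.2% lower), and 14 of the 16 were alpha members with a median log2 fold change of 0.26. With the shared part taken off, 3 alpha and 3 gamma variable exons were higher and 5 gamma ones lower, beside 39.0% of all genes. Pcdhga6, at 4.9 to 8.64 CPM per kb in VS, was lower in vHPC by a log2 fold change of -0.84 ± 0.12 (SE, FDR = 0.000121, edgeR), in 5 of 5 mice and without overlap. Pcdhgb7 (-0.89 ± 0.19, FDR = 0.00243), Pcdhga7 (-0.69 ± 0.15, FDR = 0.00282), Pcdhga9 (-0.65 ± 0.18, FDR = 0.0141) and Pcdhgb6 (-0.54 ± 0.14, FDR = 0.00736) were lower, all within the stretch from Pcdhga6 to Pcdhgb7.

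Pcdhac2 was 0.55 ± 0.10 higher in vHPC than in VS in log2 (SE, FDR = 0.000444, edgeR), without overlap of the libraries and in 5 of 5 mice. Pcdhac1 was 0.79 ± 0.20 higher (FDR = 0.0074) and Pcdha9 0.48 higher (FDR = 0.0502). The gamma rises of Pcdhga3 (0.34), Pcdhga11 (0.29) and Pcdhga12 (0.28) had FDR of 0.0587 to 0.0816 and were lost with the mouse as a block, as was Pcdha9. In that fit Pcdhga4 (-0.41) and Pcdhga10 (-0.51) were called lower, which gave 2 alpha exons higher and 7 gamma exons lower beside 35.0% of all genes.

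Among beta genes Pcdhb6 was again lower in vHPC, at 1.21 to 1.84 CPM per kb in VS (log2 fold change -1.33 ± 0.18, FDR = 6.61e-05, edgeR). Pcdhb20 (-0.63, FDR = 0.00219), Pcdhb8 (-0.62) and Pcdhb17 (-0.28) were lower too. Pcdhb2 ran from 0.862 to 1.43 CPM per kb in vHPC and from 0.352 to 0.738 in VS and was 0.82 higher in log2 (FDR = 0.017), and Pcdhb22 was 0.34 higher. The Pcdhb22 call was kept in 7 of 12 fits without a library and that of Pcdhb8 in 10 of 12. With the mouse as a block Pcdhb22 was lost (0.26, FDR = 0.103, edgeR) and Pcdhb21 was called lower (-0.63, FDR = 0.085, 5 of 5 mice). Pcdhb1 was lower (-2.92) on means of 1 count in vHPC and 8.83 in VS.

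Between DS and VS, on gene counts, 0 members were called by edgeR (3 with an unadjusted p under 0.05, as had 18.1% of all genes) and 0 by DESeq2, beside 6.09% and 9.71% of all genes. With the shared part taken off, Pcdhgc4 was lower in DS (1.98 to 3.59 CPM per kb, against 3.05 to 7.05 in VS), with a log2 fold change of -0.70 ± 0.21 (SE, FDR = 0.0822, edgeR), beside 6.10% of all genes. This call was kept in 3 of 12 fits without a library, and it was lost with the mouse as a block (-0.44, FDR = 0.12) and without the incomplete library (-0.62, FDR = 0.113). With the block Pcdhgc5 was called lower in DS instead (-0.29 ± 0.08, FDR = 0.0484), beside 9.71% of all genes.

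Regulators and partners of the clusters were read from lists of related genes. Of 25 chromatin regulators that act on the clusters or with cohesin, 4 were higher and 10 lower in CTX than in dHPC on a median log2 fold change of -0.04, beside 55.3% of all genes called. The insulator gene Ctcf was not called (log2 fold change -0.03, FDR = 0.537, edgeR), and the cohesin subunit gene Rad21 (-0.09, FDR = 0.0661) and the silencing factor gene Smchd1 (-0.18, FDR = 0.0122) were lower. Between vHPC and DS, 3 of 16 tested were higher and 3 lower beside 43.1% of all genes, with Wiz, encoding a zinc finger partner of histone methyltransferases, at 0.42 (FDR = 0.0162) and Smchd1 at -0.27 (FDR = 0.063). Between vHPC and VS, 5 of 25 were higher, Wiz among them (0.25, FDR = 0.0423), and 2 lower, beside 39.1% of all genes.

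Nonclustered delta protocadherins, which are encoded elsewhere and do not share exons, held larger log2 differences than any clustered member in the same 3 comparisons. Of 10, 5 were higher and 5 lower in CTX than in dHPC beside 55.3% of all genes called, with Pcdh7 at 1.70 and Pcdh20 at -2.12. Pcdh20 was 3.09 higher in vHPC than in DS and 3.29 higher than in VS in log2. Of 27 partner and downstream genes, 6 were higher and 18 lower in CTX than in dHPC (55.3% of all genes), and 12 were higher and 2 lower in vHPC than in VS (39.1% of all genes). Of 15 classical cadherin and catenin genes, 8 were higher and 5 lower in CTX than in dHPC, beside the same 55.3%.

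Ethanol was compared with saline within each region and paradigm, which asked whether the members' levels changed 4 h after 1 or 10 injections. Across the 10 comparisons a single member passed FDR under 0.1 on gene counts, Pcdhb12 in acute CTX. Beside it, edgeR called 1.99% of all genes in acute CTX, 0.0420% in acute dHPC, 0% in acute vHPC, 5.15% in acute DS and 0.0399% in acute VS. In the chronic paradigm it called 0% in CTX, dHPC and VS, 0.0555% in vHPC and 0.0545% in DS. The number of members with an unadjusted p under 0.05 was 25 in acute CTX, 3 in acute dHPC, 5 in acute vHPC, 24 in acute DS and 14 in acute VS, and in the chronic paradigm 5, 1, 0, 5 and 0 in the same order of regions. Of all genes, 12.5, 7.88, 11.9, 15.5 and 7.32% had such a p in the acute comparisons and 10.4, 8.23, 9.51, 7.83 and 9.95% in the chronic ones. DESeq2 called 1 member in acute CTX (beside 3.69% of all genes), 22 in acute DS (beside 6.40%) and 0 in each of the other 8 comparisons. All genes were called by DESeq2 at 1.07% in acute dHPC, 2.90% in acute vHPC and 0.889% in acute VS, and in the chronic paradigm at 0.608% in CTX, 0.859% in dHPC and 1.08% in vHPC, with 1.34% in DS and 1.79% in VS.

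Pcdhb12 (ENSMUSG00000043458, chr18:37568674-37571707) stood at 6.81, 7.16 and 7.94 CPM in acute saline CTX and at 9.88, 11 and 9.28 CPM in acute ethanol CTX. All 3 ethanol libraries lay above all 3 saline libraries, and the means of 7.31 ± 0.579 and 10.1 ± 0.873 CPM (SD, n = 3 each) gave a log2 fold change of 0.46 ± 0.11 (SE, FDR = 0.0623, edgeR). In the 4 other acute regions the log2 fold change was 0.14 to 0.38, with FDR of 0.618 to 0.836. In dHPC the acute levels were 5.89, 6.04 and 7.42 CPM with saline and 7.31, 7.83, 7.62 and 7.99 with ethanol, and in chronic VS they were 7.2, 7.2 and 6.03 against 7.31, 8.86 and 8.83. The ethanol mean lay above the saline mean in each of the 10 comparisons, which share mice between regions.

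In chronic CTX Pcdhb12 was at 9, 7.36 and 8.76 CPM with saline and 8.03, 9.28 and 8.39 with ethanol, and the groups overlapped. The difference between the acute and the chronic effect did not pass (log2 -0.44 ± 0.16, FDR = 0.600, edgeR). The acute call was lost when the 4 CTX groups were fitted together (FDR = 0.477) and in 4 of 6 fits without a library (highest FDR 0.268), while DESeq2 gave FDR = 0.00925. Oligodendrocyte markers summed to 1964 to 2219 CPM in acute saline CTX and 2300 to 3041 in acute ethanol CTX, with 5 of 8 called higher, and their part in the Pcdhb12 difference was not tested.

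**Figure D5:**
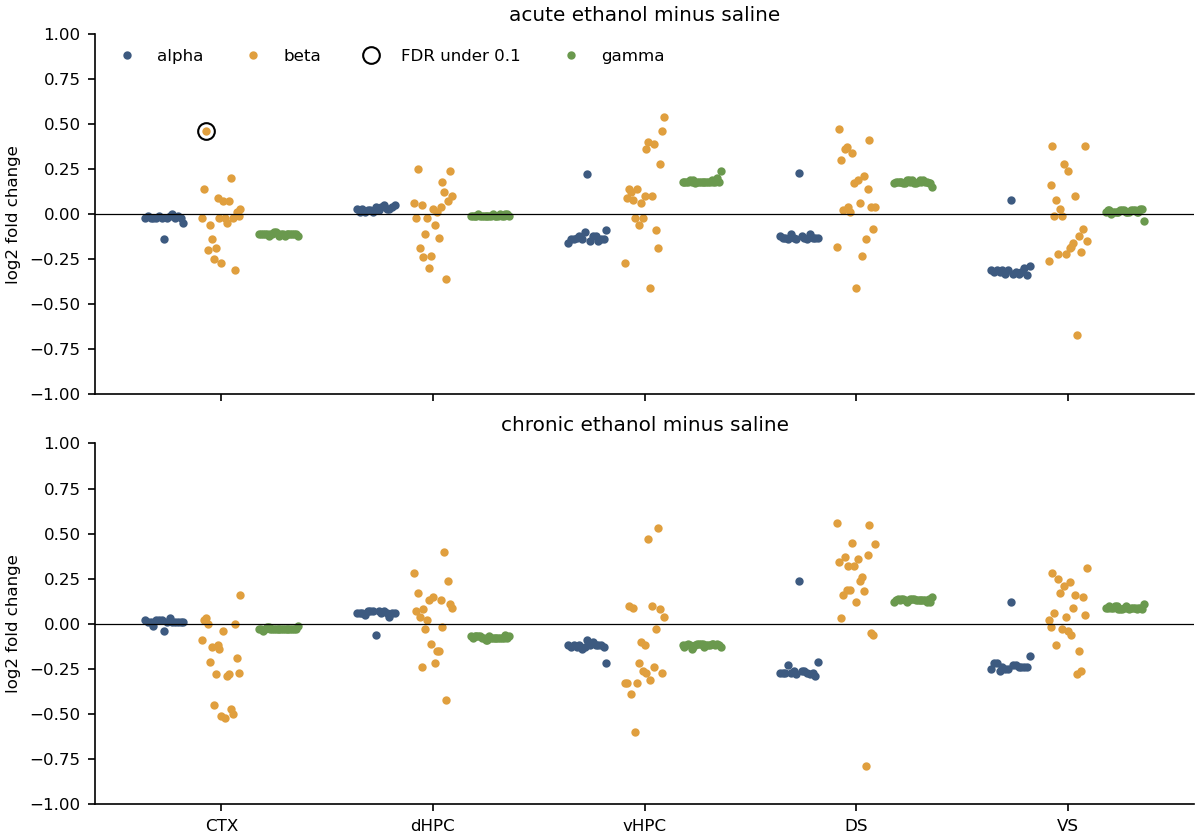
Each point is the log2 fold change of a member's gene count, ethanol minus saline, by region, for the acute (top) and chronic (bottom) paradigm, with alpha members in blue, beta in orange and gamma in green. Alpha and gamma members of a comparison sit together because of their shared exons, apart from the chimeric Pcdha4b, beta members scatter more widely, and the circled point is Pcdhb12 (0.46) in acute CTX (Pcdhb1 is left out because of its few counts).

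The gamma cluster differed in sign between regions after acute ethanol without a member passing edgeR's FDR. In acute DS the shared gamma exons were at 365, 388 and 370 CPM with saline and 429, 437 and 418 CPM with ethanol, so the groups did not overlap. The median gamma log2 fold change was 0.18, against 0.00 for all genes, and 22 of 22 gamma members had an unadjusted p under 0.05 (15.5% of all genes), with the lowest FDR of 0.118 for Pcdhga8 (0.19 ± 0.06). DESeq2 called 21 gamma members and Pcdha4b higher, beside 6.40% of all genes in either direction. These counts share most of their reads, so the calls are not independent of each other.

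The same libraries differed in tissue markers. In acute DS the 9 pallial excitatory neuron markers summed to 440 to 565 CPM with saline and 122 to 196 CPM with ethanol, with 8 called lower and 1 higher. The 10 striatal projection neuron markers summed to 6106 to 7427 CPM with saline and 8181 to 8434 CPM with ethanol, with 8 called higher. Odorant receptor genes, silent in brain, summed to 25.1 to 35.6 and 34.6 to 45.3 CPM. The part of these in the gamma difference was not tested.

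In acute CTX the shared gamma exons were at 361, 368 and 361 CPM with saline and at 329, 353 and 323 CPM with ethanol, without overlap. The median gamma log2 fold change was -0.11, with 22 of 22 members at an unadjusted p under 0.05 (12.5% of all genes) and FDR of 0.31 to 0.4. Vascular and meningeal markers summed to 233 to 243 CPM with saline and 194 to 218 with ethanol in acute CTX. In acute vHPC the shared gamma exons were at 315, 338 and 364 CPM with saline and 383, 371 and 405 CPM with ethanol. The median gamma log2 fold change was 0.18, with a lowest FDR of 0.358 (Pcdhgc5, 0.24, edgeR). There dentate granule neuron markers summed to 109 to 313 and 372 to 589 CPM, and pan-neuronal markers to 5099 to 5989 and 4667 to 4885 CPM. Vascular and meningeal markers summed to 227 to 234 and 177 to 212 CPM. None of these markers was called, but edgeR called 0% of all genes in acute vHPC, so this does not decide whether they changed. In chronic vHPC the order of the shared gamma exons was the other way, at 382, 381 and 369 CPM with saline and 343, 360 and 347 CPM with ethanol. The median there was -0.12, and pallial excitatory markers were at 2201 to 2559 against 1515 to 2057 CPM. The part of these markers in the gamma differences was not tested. In dHPC the acute means of the shared gamma exons were 311 ± 3.79 and 311 ± 8.18 CPM (SD, n = 3 and 4).

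The change of the ethanol effect between paradigms was tested as an interaction in each region, and edgeR called 0 members and 0% of all genes in each of the 5. In vHPC the median gamma value was -0.30, all 22 gamma members had an unadjusted p under 0.05 (11.5% of all genes), and the lowest FDR was 0.301 (Pcdhgc5, -0.37 ± 0.11). DESeq2 called 21 members lower there, beside 2.02% of all genes (1.36% lower). All 21 were gamma members, whose counts share most of their reads, so the calls are not independent of each other. It gave the beta members no FDR there, so none of them could be called. In the other 4 regions DESeq2 called 0 members, beside 0.0791% of all genes in CTX, 0.00745% in dHPC, 0% in DS and 0.0191% in VS. In the other regions 1 to 2 members had an unadjusted p under 0.05 in edgeR, as had 2.87 to 8.19% of all genes. Choroid plexus markers summed to 101 to 2403 CPM (acute saline), 79.2 to 2002 (acute ethanol), 26.6 to 206 (chronic saline) and 907 to 3254 (chronic ethanol) in vHPC, and their part was not tested.

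The alpha cluster was lower with ethanol in the striatum, also without a member passing. In vHPC the mean of the shared alpha exons was lower too, by log2 -0.15 (acute) and -0.12 (chronic), with overlapping libraries. In CTX and dHPC this log2 difference ran from -0.01 to 0.07. In acute VS the shared alpha exons were at 77.8, 79.7 and 84.3 CPM with saline and at 74.2, 60.7 and 60.9 CPM with ethanol, without overlap. The median alpha log2 fold change was -0.32, 14 of 15 members had an unadjusted p under 0.05 (7.32% of all genes), and the lowest FDR was 0.485 (Pcdhac1, -0.34). Without VS acute ethanol replicate 2, 5 alpha members were called lower. These counts share most of their reads, so the calls are not independent of each other. With every library kept, edgeR called 0.0399% of all genes. In acute DS the levels were 76.8, 77.8 and 78.1 CPM against 71.1, 73.7 and 71.9 CPM, also without overlap, a median of -0.13. Chronic medians were -0.27 in DS and -0.24 in VS, and their libraries overlapped. In chronic DS the highest saline level, 98.1 CPM, was that of the incomplete library, and without it the saline levels were 81.5 and 76.3 CPM, the ethanol levels 67.7, 78.8, 60.1 and 80.2 CPM, and the median -0.15. Pallial excitatory markers were at 378 to 846 CPM with saline against 119 to 231 with ethanol in acute VS. In chronic VS they overlapped, at 124 to 772 against 100 to 190. Pan-neuronal markers were at 3589 to 4257 against 3270 to 3540 CPM in acute VS. In acute DS these were at 3546 to 4000 against 3386 to 3503 CPM, and they overlapped in chronic DS and VS. The part of these markers in the alpha differences was not tested.

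The beta sum was at 152, 134 and 141 CPM with saline and 132, 123 and 124 CPM with ethanol in chronic CTX, and at 133, 136 and 128 against 154, 163, 147 and 181 CPM in chronic DS. The groups did not overlap in either, with medians of -0.19 and 0.26, and the lowest beta FDR was 0.443 (Pcdhb21, -0.52) and 0.612 (Pcdhb10, 0.56). Without the incomplete library the chronic DS median was 0.30. Pallial excitatory markers in chronic DS summed to 472 to 652 CPM in the complete saline libraries and 100 to 238 with ethanol. In chronic CTX astrocyte markers summed to 3301 to 3855 and 2665 to 3275 CPM, and thalamic neuron markers to 60.8 to 82.6 and 32.6 to 56.4 CPM. None of these lists' genes was called in either region. All genes were called at 0% in chronic CTX and 0.0545% in chronic DS, so this does not decide whether the markers changed. Other sums also lay apart in chronic DS, with oligodendrocyte markers at 9452 to 9752 against 6445 to 8928 CPM and microglia markers at 327 to 356 against 360 to 398. Vascular and meningeal markers were at 187 to 210 against 215 to 236 CPM there, and at 210 to 232 against 197 to 208 in chronic CTX. The part of any of these markers in the beta differences was not tested. In acute DS the beta sum was 156 ± 14 CPM with saline and 172 ± 2.52 with ethanol (SD, n = 3 each).

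With the shared part taken off, ethanol calls were few and depended on the bound used. In acute CTX Pcdha8 was at 0.462, 0.557 and 0.488 CPM per kb with saline and 0.276, 0.261 and 0.248 with ethanol, without overlap, and was lower by a log2 fold change of -0.94 ± 0.23 (FDR = 0.086, edgeR) beside 1.99% of all genes. In acute DS Pcdhgb4 was at 2.51, 1.75 and 1.27 CPM per kb with saline and 3.07, 3.91 and 2.72 with ethanol. It rose by 0.91 ± 0.24 in log2 (FDR = 0.064, edgeR) when the smallest member count was taken off, beside 5.16% of all genes, but by 0.67 ± 0.24 without passing (FDR = 0.173) when the lower bound was. The C-type exons passed in none of these comparisons.

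Of the 25 chromatin regulators none was called in any of the 10 ethanol comparisons or 5 interactions. This lies near the share of all genes called, 0 to 5.15% in the comparisons and 0% in the interactions. Ctcf, Rad21, Setdb1, Smchd1 and Wiz had FDR of at least 0.312. Beside the list counts that follow, 1.99% of all genes were called in acute CTX and 5.15% in acute DS. In acute CTX the delta protocadherin Pcdh17 rose (log2 fold change 0.28, FDR = 0.0909, edgeR) as 1 of 10, Marcks (-0.33, FDR = 0.065), a membrane substrate of protein kinase C, and Nlgn2 (-0.23, FDR = 0.07), the neuroligin of inhibitory synapses, fell as 2 of 27, and Cdh1 fell (-1.20, FDR = 0.051) as 1 of 15. In acute DS the delta protocadherins Pcdh9 (-0.38, FDR = 0.0179), Pcdh7 (-0.31, FDR = 0.0318) and Pcdh1 (-0.22, FDR = 0.0922) fell as 3 of 10. Abi1 (0.30), encoding a subunit of the WAVE actin regulator, Nlgn1 (0.33), the neuroligin of excitatory synapses, and Ptk2b (0.24), encoding the kinase Pyk2, rose as 3 of 27 partner genes, Cdh8 rose (0.32) and Cdh2 fell (-0.34) as 2 of 14 cadherin and catenin genes. Beside the tissue markers given for acute DS, their part in these was not tested.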

How the data were processed

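The deposited tables hold whole-number counts per gene and per transcript for 62 libraries. The authors trimmed reads with cutadapt 5.0, mapped them to GRCm39 with STAR 2.7.10a and counted them with featureCounts 2.0.6 on Ensembl 113. They counted on the reverse strand in all libraries, with multimapping reads (up to 20 positions) and reads on overlapping features credited to every gene. Read ends, not pairs, were counted (66.4% of counts above 0 in 1147 single-exon genes were even in the unstranded batch and 86% in the other). The unstranded batch cannot separate antisense genes: 11 antisense lncRNAs in the clusters had a median sum of 4772 counts there and 56 in the stranded batch. A deposited column of summed exon length in bases gave the values per kb.

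The members and lists were chosen with earlier results of these data known. Sequences of the members are not reported here. Counts were tested per comparison with edgeR 4.0.16 (quasi-likelihood F test, limma 3.58.1, R 4.3.3), Benjamini-Hochberg FDR under 0.1 over all genes, after requiring 5 counts in 2 libraries of a group. The authors used DESeq2, an alternative here (DESeq2 1.42.0). Region tests used the 6 saline libraries of each region with paradigm as covariate, and the incomplete DS library limited its tests to complete chromosomes. SE is the fold change divided by the root of the F statistic. Plots and tables used Python 3.11.15, pandas 2.3.3, numpy 2.4.6, scipy 1.17.1 and matplotlib 3.10.9. The fits were tested on simulated counts. The genes named were every member with FDR under 0.1, the lowest p per cluster and test where it bears on a result, the C-type genes, Pcdhb1, the highest and lowest members per region, and fixed regulators. Replicates were separate mice, and the 66 pairs of replicates all differed beyond sampling noise. In region tests the mouse was a block in a second fit, since regions came from the same animals. Depth per region had medians of 51703961 (CTX), 48892266 (dHPC), 14530176 (vHPC), 13091491 (DS) and 14524117 (VS) counts, and precision follows counts.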

Additional observations from a re-analysis of the deposited data

Results flagged for a closer look

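The ethanol difference of a cluster took opposite signs in pairs of regions or paradigms in 4 cases, where every library of a group lay to 1 side of its saline libraries. The difference of log2 fold changes was -0.31 for the shared gamma exons between acute CTX and acute vHPC, and -0.31 between acute CTX and acute DS. It was -0.46 for the beta sum between chronic CTX and chronic DS. These 3 cross the sequencing batch and were not tested. For the shared gamma exons in vHPC between the acute and the chronic paradigm it was -0.30, and the test of that difference is the interaction given above, in which no gamma member passed in edgeR (FDR 0.301 to 0.355) and 21 members passed in DESeq2. No library stood apart in the groups of 4 by Dixon's test.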

How the results depend on the processing

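The number of members called depended on the processing in several comparisons. Taking off the shared part reversed some calls. Pcdhga1, Pcdhgb5, Pcdhgb6, Pcdhga10 and Pcdhgb7 were called higher in CTX than in dHPC on gene counts (log2 fold change 0.12 each) and lower without it. Pcdha8 went from higher in vHPC than in DS (0.17) to lower. Reversal was otherwise looked for only in some of the members named above, and none was seen. In acute CTX, 2 members were called with the lower bound of the shared part taken off, 0 with the 4 groups in 1 fit and 0 to 1 with a library left out. In acute DS, the 0 calls became 22 with DESeq2, 13 without the low-count filter, 2 with the trend on GC content and length removed, 1 with the smallest member count taken off and 0 to 1 with a library left out (1 without acute saline replicate 4). In acute VS, leaving out a library gave 0 to 5 calls. The vHPC interaction had 21 with DESeq2. Between vHPC and DS, 9 were called without the filter, 48 with all mice and condition as covariate, and 13 to 20 with a library left out. Between DS and VS, 1 was called with the smallest member count taken off, 5 with all mice, and 0 to 1 with a library left out. For variable exons all mice gave 23 between vHPC and VS, and 10 between DS and VS, where leaving out a library gave 0 to 1. From variable exons alone the cluster differences in log2 were 0.56 (alpha, vHPC against DS), -0.18 (alpha, DS against VS) and -0.07 (gamma, DS against VS). The last pair, not called, changed sign, since the shared exons stood higher in DS (means of 81.4 against 76.9 CPM and 372 against 363 CPM). The cause of these shifts was not tested. Subtraction of the lower bound, and its fits with a block, all mice or a library left out, were chosen after seeing the data.

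In the ethanol comparisons equal replicate numbers are different mice, and the labels do not pair them. The correlation of deviations was -0.057 to 0.0157 over 3 pairs in acute dHPC, and 0.0948 and 0.149 over 2 pairs in acute CTX. Over all comparisons it ran from -0.346 (chronic CTX) to 0.404 (chronic dHPC), on few pairs each, so it does not decide whether equal numbers share anything. With the replicate block 1 member was called in acute CTX (Pcdhb12, 0.58, FDR = 0.0163, edgeR), 0 in acute dHPC, 0 in chronic CTX and 0 in the 5 interactions. No residual degrees of freedom remained for the block in acute vHPC, DS and VS and in chronic dHPC, vHPC, DS and VS. In region tests the mouse block gave 35 higher and 6 lower (CTX against dHPC), 13 and 6 (vHPC against DS), 15 and 6 (vHPC against VS) and 0 (DS against VS). The vHPC, DS and VS libraries held fewer counts than most CTX and dHPC ones, which limits their variable exons.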
